A study of Mus musculus with 12 samples.

Results

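The genes described here are the collagens and the matrix genes of the dermis, 60 of the 23235 gene symbols in the deposited tables. They were chosen by name: 43 are all the symbols made of Col, a number, the letter a and a number, and 17 were named individually (Postn, Fn1, Fbn1, Eln, Dcn, Lum, Bgn, Fbln1, Fbln2, Sparc, Tnc, Thbs1, Thbs2, Lox, Pdgfra, Pdgfrb and Vim). RNA was measured in 12 polyA libraries from FVB/NJ mice, 3 in each of 4 groups, and the values are FPKM, fragment counts scaled by transcript length and by the mapped fragments of the library. The question the groups address is what 20% camphor white oil (CWO), an essential oil painted on the skin, does to gene expression in normal epidermis and in papillomas, which are pre-malignant skin tumours. All mice were shaved, and acetone was the vehicle throughout.

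The epidermis groups received 400 µL of acetone alone or of 20% CWO on the skin, and epidermis was taken 24 h later from skin soaked in ammonium thiocyanate, which loosens it from the dermis. For these groups the labels state 5 mice, and the 3 samples with the best RNA integrity per treatment were sequenced. The papilloma mice were 6 to 7 weeks old when they received 400 nmol of the carcinogen DMBA, and TPA, which promotes tumours, was then applied repeatedly at 10 nmol. Treatment with acetone or 20% CWO followed for 6 weeks, and each library came from 1 of 3 mice per treatment with 4 tumours pooled. The labels give no DMBA or TPA for the epidermis mice, and no separation of the tumours into epithelium and stroma. Tissue, carcinogen, promoter, length of treatment and isolation therefore cannot be told apart in any comparison of papilloma with epidermis.

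Collagens are proteins wound from several chains into a triple helix. Types I, III and V form the fibrils of the dermis, type IV forms the sheet of the basement membrane under the epidermis, type VII anchors that membrane to the dermis, and type XVII is a membrane protein by which basal keratinocytes hold on to it. Fibroblasts make most of the fibrillar collagen, and matricellular proteins such as periostin (Postn), tenascin C (Tnc) and thrombospondin 1 (Thbs1) are secreted into the matrix, where they act on cells and fibrils during wound repair and around tumours.

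Promoter sequences are shown for members that the results turn on and that have an entry in RefSeq's table for GRCm38.p6, another build than the mm9 of the deposited values. Each window is the 250 bases before the most upstream annotated start, written 5′ to 3′ on the gene's strand. Capitals mark every match, on either strand, to TATAAA (the TATA box), CCAAT (the core of the CCAAT box) or GGGCGG (the core of the GC box). No marked match overlaps another, and a match is a stretch of letters, not a known binding site. Col1a2 and Col3a1 encode fibrillar chains with their lowest levels in oil-treated epidermis and their highest in papilloma, and Postn and Tnc encode matricellular proteins with their lowest levels in vehicle epidermis.
Col1a2, chr6:4505368-4505617, plus strand: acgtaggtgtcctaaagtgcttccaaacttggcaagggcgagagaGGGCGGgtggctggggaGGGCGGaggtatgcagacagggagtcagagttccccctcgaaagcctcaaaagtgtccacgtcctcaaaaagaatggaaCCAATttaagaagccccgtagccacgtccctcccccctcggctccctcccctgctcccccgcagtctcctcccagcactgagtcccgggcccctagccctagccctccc
Col3a1, chr1:45311288-45311537, plus strand: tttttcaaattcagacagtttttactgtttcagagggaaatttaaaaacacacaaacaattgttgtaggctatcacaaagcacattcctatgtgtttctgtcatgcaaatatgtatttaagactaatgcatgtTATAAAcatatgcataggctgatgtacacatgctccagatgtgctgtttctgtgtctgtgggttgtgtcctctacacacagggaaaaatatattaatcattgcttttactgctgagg
Postn, chr3:54359017-54359266, plus strand: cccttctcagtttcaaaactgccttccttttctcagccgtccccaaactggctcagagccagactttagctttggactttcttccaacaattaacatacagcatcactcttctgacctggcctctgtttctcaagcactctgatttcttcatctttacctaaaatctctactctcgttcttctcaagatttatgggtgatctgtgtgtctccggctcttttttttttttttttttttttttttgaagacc
Tnc, chr4:64047016-64047265, minus strand: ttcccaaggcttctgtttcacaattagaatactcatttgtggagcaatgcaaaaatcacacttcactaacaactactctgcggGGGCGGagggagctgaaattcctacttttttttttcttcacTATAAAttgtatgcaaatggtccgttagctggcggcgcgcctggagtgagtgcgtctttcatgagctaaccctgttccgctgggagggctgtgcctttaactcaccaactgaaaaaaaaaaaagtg
The Col1a2 window held 1 CCAAT and 2 GGGCGG matches, the Col3a1 window held 1 TATAAA, and the Tnc window held 1 TATAAA and 1 GGGCGG. The Postn window held none of the 3 motifs, which says only that these letters are not in this window. Postn and Tnc each have 2 annotated starts. TATAAA was in 12.4% of all 32851 windows of this length, CCAAT in 33.9% and GGGCGG in 32.7%. Among the 51 windows of the 45 members with an entry the shares were 19.6%, 29.4% and 54.9%.

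The type IV chains are encoded in head-to-head pairs, and the 2 pairs shown here differed in opposite directions between the tissues, as described further on. Col4a5 and Col4a6 point away from each other on chromosome X, with annotated starts 1343 bases apart, and their windows carry the same marks as above.
Col4a5, chrX:141475169-141475418, plus strand: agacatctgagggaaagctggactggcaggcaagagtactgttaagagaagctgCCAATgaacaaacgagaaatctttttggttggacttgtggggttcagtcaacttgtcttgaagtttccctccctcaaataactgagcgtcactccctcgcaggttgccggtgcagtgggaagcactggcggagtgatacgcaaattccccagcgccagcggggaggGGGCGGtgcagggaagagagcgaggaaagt
Col4a6, chrX:141474077-141474326, minus strand: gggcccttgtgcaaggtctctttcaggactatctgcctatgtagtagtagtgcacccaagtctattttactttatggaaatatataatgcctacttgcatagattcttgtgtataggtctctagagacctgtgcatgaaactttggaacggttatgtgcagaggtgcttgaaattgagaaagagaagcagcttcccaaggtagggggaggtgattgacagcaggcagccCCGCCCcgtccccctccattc
The Col4a5 window held 1 CCAAT and 1 GGGCGG match, and the Col4a6 window held 1 GGGCGG match, on the opposite strand. The starts of Col4a1 (minus strand) and Col4a2 (plus strand) lie only 21 bases apart on chromosome 8, and the 22 bases from one to the other, which both annotated transcripts cover, include 1 GGGCGG match.
Col4a1 and Col4a2, chr8:11312805-11312826, plus strand: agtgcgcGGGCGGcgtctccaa
In the mm9 loci of the deposited values Col4a1 and Col4a2 do not overlap. Whether fragments were counted by strand is not given in the sources used here.

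The libraries held 11.1 to 24.6 M fragments, as recovered from the FPKM and their intervals, with both extremes in vehicle epidermis. Keratinocyte markers were high in every library: 7 basal genes summed to 7686 to 11259 FPKM in epidermis and 19020 to 21551 in papilloma, and 7 suprabasal genes to 18410 to 24172 and 6600 to 17305. In papilloma the basal sum was mostly Krt14, and the basal genes differed in direction, with Krt15 at 1202 to 2500 FPKM in epidermis and 20.6 to 62.6 in papilloma and Krt5 overlapping between the tissues. Of the suprabasal genes Krt10, Lor, Flg2 and Dsg1a were lower in every papilloma library than in any epidermis library, while Krt1, Ivl and Cdsn overlapped. The epidermis libraries also held skeletal muscle RNA, and unequally: 17 muscle genes summed to 12273, 19402 and 3949 FPKM in the vehicle libraries against 4191, 3281 and 4249 in the oil libraries, and to 9.58 to 452 in papilloma. Some fibroblast genes that are not members were also highest in vehicle libraries 1 and 2, with Dpt (dermatopontin) at 32.9, 17.4 and 7.49 against 7.03, 7.30 and 8.86 with oil, and Clec3b (tetranectin) at 53.5, 34.9 and 14.9 against 16.9, 8.94 and 12.4. Thy1, Dpp4 and Fap of the same list were not. Thy1 stood at 119, 119 and 131 against 155, 127 and 133 with oil. Dpp4 stood at 3.08, 1.63 and 2.20 against 1.97, 2.72 and 1.96, and Fap at 1.54, 0.913 and 0.889 against 0.567, 0.953 and 0.994. Of the 10 fibroblast markers all were detected in every group, and their sum, which is mostly Thy1, a gene that epidermal T cells also express, was 171 to 251 against 156 to 197. Other cell types were ordered otherwise: 8 adipocyte genes summed to 195, 61.4 and 40.5 with vehicle and 137, 101 and 76.1 with oil. The 10 endothelial genes summed to 26.7, 10.4 and 7.06 against 9.78, 16.0 and 15.1. The part of the RNAs of these cell types in the results on epidermis was not tested, except that values without the libraries richest in muscle RNA are given where they bear on a call.

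**Figure D1:**
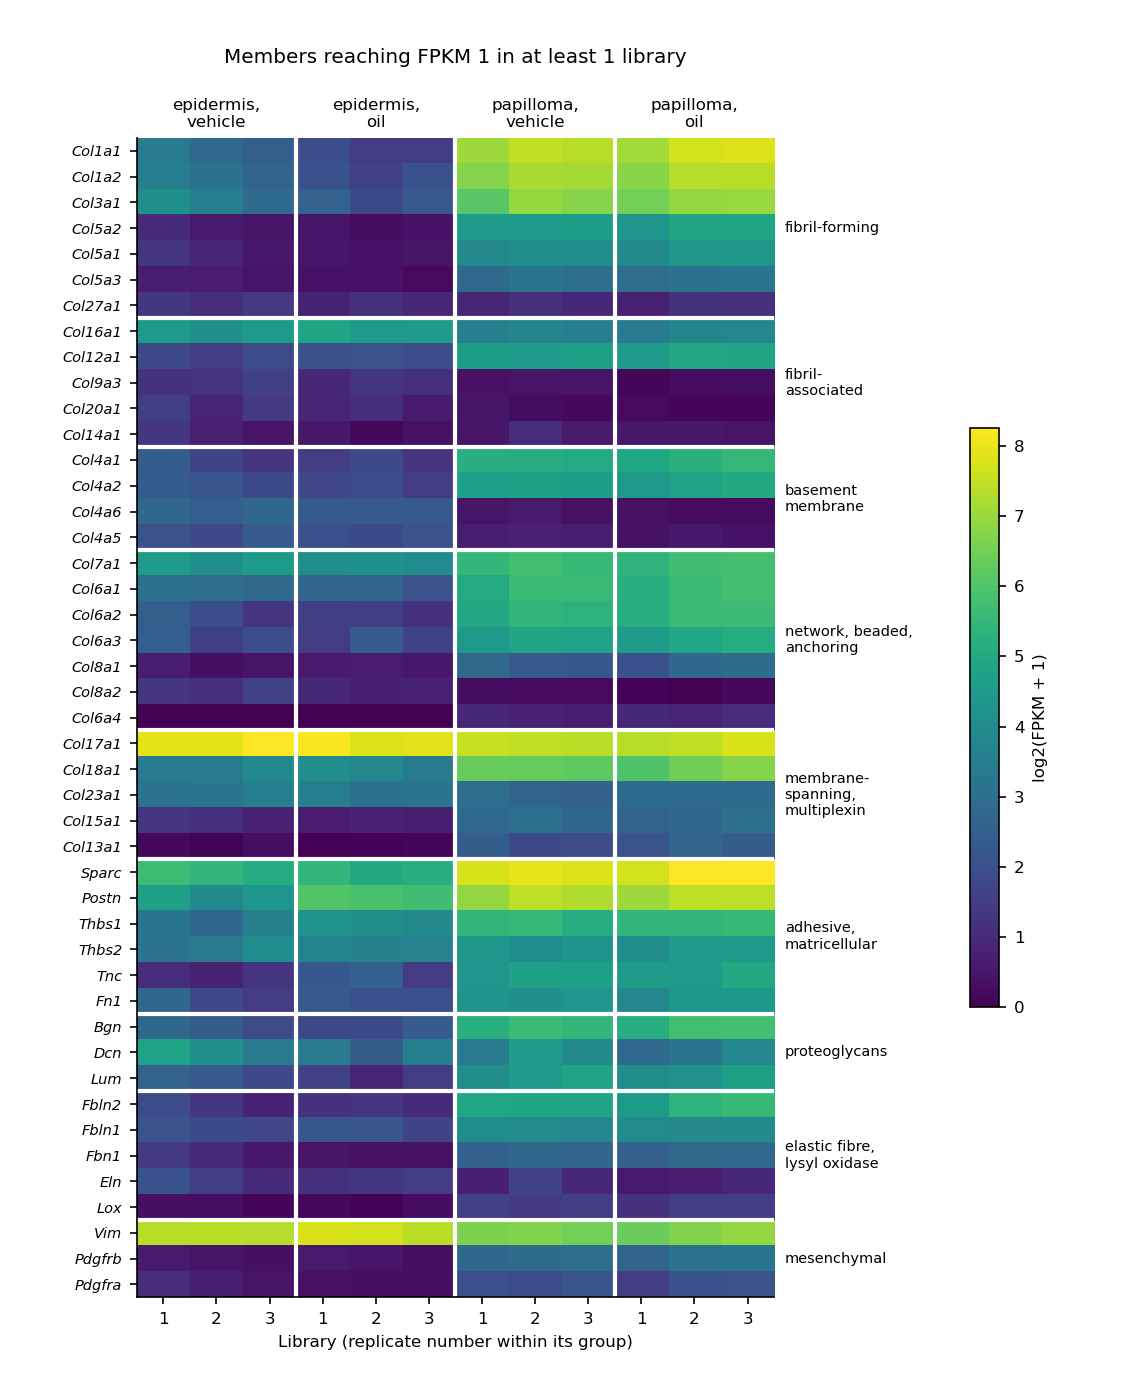
Levels of the 45 members that reached an FPKM of 1 in at least 1 library, as log2(FPKM + 1) from dark (0) to light, with 1 column per library in its group and 1 row per gene in its role group. The fibril-forming collagens other than Col27a1 are lighter in papilloma than in epidermis, and Col17a1 and Vim are light in all 12 libraries.

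Of the 60 members, 15 stayed below an FPKM of 1 in every library: Col2a1, Col10a1, Col11a1, Col11a2, Col19a1, Col22a1, Col24a1, Col25a1, Col28a1, Col4a3, Col4a4, Col6a5, Col6a6, Col9a1 and Col9a2, among them the cartilage chains of types II, X and XI. At least 3 libraries of both tissues reached it for 27 members, of papilloma alone for 10 and of epidermis alone for 6. The remaining 2 reached it in fewer libraries. The heat map of member levels shows the other 45 in each library.

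In epidermis the highest members were Col17a1 and Vim. Col17a1, the collagen of the hemidesmosome, stood at 242, 242 and 304 FPKM with vehicle and 288, 218 and 235 with oil. Vim, the intermediate filament of mesenchymal cells, Langerhans cells and lymphocytes, stood at 166, 169 and 161 with vehicle and 216, 207 and 167 with oil. Together they made most of the members' summed FPKM, and neither passed the test between oil and vehicle (log2 difference -0.09, adjusted p = 0.86 for Col17a1 and 0.24, adjusted p = 0.42 for Vim, limma with Benjamini-Hochberg adjustment). The sum over all 60 members was 675 ± 39.2 FPKM (SD, n = 3) with vehicle and 693 ± 79.2 (SD, n = 3) with oil, and an exact two-sided permutation test over libraries gave p = 0.8, where the smallest possible value with 3 against 3 is 0.1.

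In epidermis at 24 h after CWO, Postn rose 2.96-fold in mean FPKM, Col1a1 fell to 0.317 of its vehicle mean, and these were the members that passed the test, neither of them under every alternative. Of 33 members that could be tested 1 was called higher and 1 lower. Over all 12311 genes tested, 1.89% were called, 1.73% higher and 0.162% lower (limma on log2(FPKM + 1), adjusted p below 0.05). The balance rested on vehicle library 3: 91.4% of the genes called were higher, against 52.8% of 653 genes without that library. With Postn and Col1a1 included, 12 members had an unadjusted p below 0.05 (limma), a level that 14.6% of all genes reached. Of all 60 members, 13 had every oil library below every vehicle library, against 6.67% of all genes tested, while Postn, Tnc, Thbs1 and Col12a1 had every oil library above. In either direction 18.7% of all genes tested were without overlap. These shares leave out genes too low for the fit, as 6 of the 13 members were. In all, 10 tested members had a positive and 23 a negative difference, with a median log2 difference of -0.21 against 0.02 over all genes tested. In bulk samples such as these, fewer cells of a type and less RNA per cell cannot be told apart.

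Among the 6 adhesive and matricellular glycoproteins, 5 had a positive and 1 a negative difference. Postn, which binds collagen and integrins, measured 24.7, 14.3 and 19.4 FPKM in the vehicle libraries and 63.1, 58.4 and 51.3 in the oil libraries. Every oil library was above every vehicle library, and the log2 difference was 1.55 (SE 0.19, adjusted p = 0.00906, limma). The authors' deposited table also lists Postn, as the sole member among its 176 genes for epidermis, with mean normalised counts of 975 and 2845 and an adjusted p of 6.53e-15. The highest adjusted p listed there is 0.00544, so it does not show how the other members stood at 0.05. Postn was called with each single library left out (log2 difference 1.35 to 1.73). Without both vehicle libraries rich in muscle RNA, which leaves 1 vehicle library assumed to vary like the other group, its log2 difference was 1.52 with an adjusted p of 0.0604. The call was also lost with no filter on low values (adjusted p = 0.0595) and with a replicate block (0.0514).

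Tnc, an anti-adhesive glycoprotein of healing wounds, stood at 1.06, 0.724 and 1.41 FPKM with vehicle and 3.78, 4.83 and 1.76 with oil. Thbs1, which binds matrix and can activate latent TGF-beta, stood at 8.27, 5.74 and 11.2 with vehicle and 17.5, 15.8 and 13.7 with oil. For both genes the oil libraries lay above all vehicle libraries, yet neither passed over all genes (Tnc log2 difference 1.06, SE 0.28, adjusted p = 0.118; Thbs1 0.86, SE 0.21, adjusted p = 0.102; limma). In a fit of all 12 libraries, which shares 1 estimate of the spread, both were called, Tnc with an adjusted p of 0.0340 and Thbs1 with 0.0191. The other glycoproteins overlapped between the groups: Sparc, a collagen-binding protein, at 51.2, 41.8 and 32.9 against 42.6, 31.4 and 35.1, and Fn1 (fibronectin) at 5.96, 2.49 and 1.70 against 3.98, 3.27 and 3.08. Thbs2, the close relative of Thbs1, overlapped too, at 7.84 to 15.3 against 11.0 to 12.3.

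The fibril-forming collagens had negative differences in 4 of 4 tested. Col1a1, the main chain of type I collagen, stood at 9.25, 6.14 and 4.59 FPKM with vehicle and 2.94, 1.69 and 1.70 with oil. Its partner chain Col1a2 stood at 10.5, 7.41 and 5.49 against 3.25, 2.01 and 3.24, and Col3a1, the type III chain, at 16.3, 10.8 and 6.32 against 5.04, 2.60 and 3.93. In each of the 3 genes all vehicle libraries lay above all oil libraries, and vehicle library 1 was the highest of the 6. The log2 differences were -1.28 for Col1a1 (SE 0.25, adjusted p = 0.0479), -1.18 for Col1a2 (SE 0.24, adjusted p = 0.0516) and -1.26 for Col3a1 (SE 0.31, adjusted p = 0.103, limma).

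The call of Col1a1 lay close to the threshold. It was lost with 5 of the 6 libraries left out singly (adjusted p 0.0916 to 0.139, limma). It was kept without vehicle library 3 (adjusted p = 0.00788). Among the vehicle libraries that library had the lowest muscle sum and the lowest Dpt and Clec3b, but the highest Thy1. Without vehicle libraries 1 and 2, those rich in muscle RNA, the log2 difference was -0.87 with an adjusted p of 0.509. Median-ratio scaling of the libraries gave 0.0583, limma-voom on the recovered fragments 0.0626, a replicate block 0.0572, a pseudocount of 3 gave 0.0545 and no filter on low values 0.148. With the short non-coding genes left out of the fit, Col1a2 was called too (adjusted p = 0.0468). These chains rested on modest numbers of fragments in oil-treated epidermis, 136 to 234 per library for Col1a1 and 180 to 285 for Col1a2, against 304 to 574 and 402 to 718 with vehicle.

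The ratios between chains gave no separation in epidermis. The ratio of Col1a1 to Col1a2 in FPKM was 0.879, 0.829 and 0.837 in vehicle epidermis and 0.902, 0.843 and 0.525 with oil, and the groups overlapped (exact two-sided permutation test, p = 0.9, n = 3 per group). Col3a1 to Col1a1 was 1.76, 1.75 and 1.38 with vehicle and 1.72, 1.54 and 2.31 with oil (exact p = 0.6, n = 3). The minor fibril chains Col5a1, Col5a2 and Col5a3 were too low in epidermis for the fit, with means of 0.901, 0.622 and 0.521 FPKM with vehicle and 0.364, 0.300 and 0.266 with oil. Col27a1, a fibrillar chain of another subfamily, was at 1.09 to 1.56 with vehicle and 0.766 to 1.19 with oil.

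**Figure D2:**
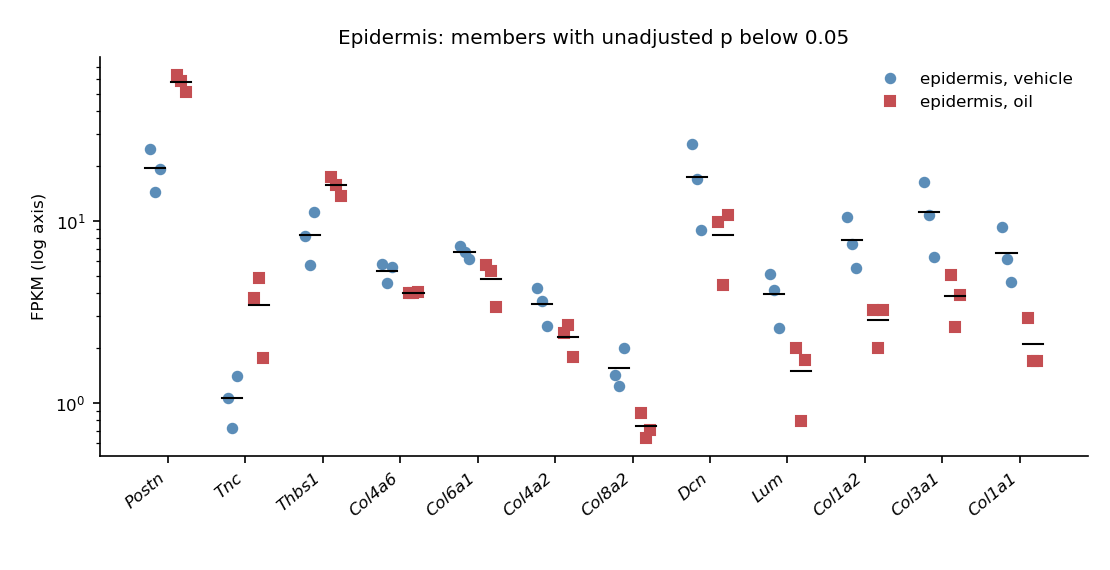
FPKM on a log axis of the 12 members with an unadjusted p below 0.05 between oil (squares) and vehicle (circles) in epidermis, 3 libraries per group, with black bars at the group means. Postn, Tnc and Thbs1 are higher with oil and the other 9 lower, Postn and Col1a1 being the pair with an adjusted p below 0.05.

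The small leucine-rich proteoglycans, which coat collagen fibrils and set their width, had negative differences in 3 of 3. Dcn (decorin) was at 26.4, 16.9 and 8.90 FPKM with vehicle and 9.85, 4.45 and 10.8 with oil, and Lum (lumican) at 5.12, 4.18 and 2.57 against 1.99, 0.797 and 1.72. The groups overlapped for Dcn (log2 difference -0.93, SE 0.40, adjusted p = 0.339) and not for Lum (-0.98, SE 0.26, adjusted p = 0.118, limma). Bgn (biglycan) was at 5.84, 4.41 and 2.68 against 2.48, 2.53 and 4.28. In all 3 genes vehicle library 1 was the highest, and that library was the highest of the 6 for 18 of the 33 members tested.

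The basement membrane chains had negative differences in 4 of 4 tested, with a median of -0.29, and none passed the test. Of the type IV chains, Col4a1 was at 4.45, 2.22 and 1.43 FPKM with vehicle and 1.83, 2.65 and 1.40 with oil, and Col4a2 at 4.27, 3.62 and 2.63 against 2.41, 2.68 and 1.79. Col4a6 was at 5.81, 4.54 and 5.60 against 4.02, 4.01 and 4.05, with groups that did not overlap (log2 difference -0.32, SE 0.13, adjusted p = 0.311, limma). Col4a5 was at 3.30, 2.51 and 4.22 against 3.07, 2.59 and 3.32. Col7a1, the anchoring fibril, was at 22.1, 16.2 and 21.5 against 16.2, 16.8 and 14.8.

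Type VI collagen, which forms beaded filaments around cells, had Col6a1 at 7.28, 6.74 and 6.18 FPKM with vehicle and 5.68, 5.32 and 3.37 with oil. Col6a2 was at 4.65, 2.99 and 1.37 against 1.98, 1.86 and 1.26, and neither passed the test. Col8a2, a short-chain network collagen, was at 1.42, 1.23 and 2.00 against 0.875, 0.641 and 0.708, without overlap (log2 difference -0.54, SE 0.16, adjusted p = 0.158, limma). It was called in the fit of all 12 libraries, with an adjusted p of 0.0296, as were Col1a2 (0.0119) and Col3a1 (0.0368).

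Of the fibril-associated collagens 2 had a positive and 2 a negative difference, and none passed the test. Col16a1 was at 21.5, 16.6 and 21.4 FPKM with vehicle and 28.7, 21.0 and 22.6 with oil, and Col12a1 at 2.55, 1.83 and 2.75 against 3.12, 3.36 and 2.84, where every oil library was above every vehicle library (log2 difference 0.29, adjusted p = 0.45, limma). Col9a3 and Col20a1 had mean FPKM of 0.785 and 0.578 of the vehicle means, with overlap, and Col14a1, too low for the fit, 0.338, also with overlap. Of the multiplexins Col15a1, too low for the fit, was at 0.594 of its vehicle mean, with overlap. Col18a1, whose end fragment is endostatin, was at 9.55, 9.84 and 14.02 against 15.7, 13.4 and 9.69. Of the elastic fibre genes Fbln1 was at 3.33, 2.62 and 2.42 against 3.84, 3.60 and 2.25, and Fbln2 at 2.81, 1.49 and 0.757 against 1.24, 1.37 and 1.021. The mesenchymal receptors were low, Pdgfra at 1.07, 0.601 and 0.361 against 0.284, 0.243 and 0.275, without overlap, and Pdgfrb at 0.529, 0.367 and 0.275 against 0.498, 0.403 and 0.249.

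In epidermis 27 members, Pdgfra and Pdgfrb included, were too low for the fit. Of these, 6 had groups that did not overlap, each at the smallest exact p that 3 against 3 allows, 0.1, and each lower with oil: Pdgfra, Fbn1, Col5a1, Col5a3, Col28a1 and Col4a3. The share of all genes this low that did not overlap was not computed. Fbn1 (fibrillin 1, the microfibril of elastic fibres) was at 1.64, 0.974 and 0.439 FPKM with vehicle and 0.366, 0.301 and 0.301 with oil.

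Papillomas treated for 6 weeks gave no call among the members. In the vehicle tumours Sparc led with 215, 244 and 225 FPKM, followed by Col17a1 (188, 177 and 169), Col1a1 (132, 179 and 164), Postn (120, 171 and 153), Col1a2 (106, 146 and 141) and Col3a1 (68.1, 123 and 106). With oil they stood at 207, 301 and 305 for Sparc, 164, 175 and 218 for Col17a1, 139, 205 and 226 for Col1a1, 132, 170 and 170 for Postn, 111, 161 and 164 for Col1a2 and 90.2, 120 and 127 for Col3a1. The groups overlapped for each of these genes. Of 37 members tested 0 were called, against 0.00821% of 12179 genes (1 gene), and 0 members had an unadjusted p below 0.05 in limma, a level that 2.51% of all genes reached. Limma-voom on recovered fragments called 0 genes, and in the authors' deposited table, which lists all 60 members for papilloma, 0 members had an adjusted p below 0.05.

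The members' differences in papilloma were small, and none passed the test. Of the 37 tested, 31 had a positive and 6 a negative difference, with a median log2 difference of 0.11 against -0.01 over all genes. Oil library 1 was the lowest of the 6 libraries for 21 of the 37 members and oil library 3 the highest for 25. The summed FPKM of the members was 1522, 1816 and 1676 with vehicle and 1467, 1946 and 2121 with oil (exact two-sided permutation test, p = 0.5, n = 3 per group).

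By role, each of the 7 fibril-forming collagens tested had a positive difference, at log2 0.03 to 0.24, the largest being Col1a1 (0.24, SE 0.19, adjusted p = 1, limma). Of the matricellular group Postn had a difference of 0.09 (SE 0.15), Tnc, at 18.8, 25.6 and 25.0 FPKM with vehicle and 22.2, 21.2 and 30.6 with oil, one of 0.08 (SE 0.17), and Thbs1 0.12 (SE 0.11). Fn1 was at 18.3, 16.7 and 18.8 against 13.6, 20.3 and 20.4. The widest difference of any member tested was that of Dcn, at 9.47, 22.2 and 14.4 with vehicle and 6.11, 8.14 and 13.3 with oil (log2 difference -0.67, SE 0.33, adjusted p = 1, limma), where the groups overlapped.

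Other members overlapped between the tumour groups as well. Bgn was at 37.0, 48.5 and 43.4 FPKM against 34.1, 53.6 and 53.8, Vim at 96.8, 103 and 89.7 against 82.4, 103 and 121, and Pdgfra at 3.05, 2.79 and 3.44 against 1.797, 3.19 and 3.33. Pdgfrb was at 5.92, 6.59 and 6.71 against 5.28, 7.84 and 8.15. Fbln2 was at 29.8, 28.6 and 27.3 against 21.5, 39.6 and 44.9, and Fbln1 at 15.1, 14.7 and 13.1 against 14.8, 13.9 and 14.5. Col7a1 was at 43.5, 53.1 and 44.7 against 39.9, 52.1 and 55.0, Col16a1 at 10.8, 12.8 and 10.9 against 9.85, 12.5 and 13.2, and Col18a1 at 79.9, 78.1 and 73.5 against 62.1, 86.9 and 107. The basement membrane chains Col4a1 and Col4a2 had differences of 0.10 and 0.12.

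The minor type IV chains were at very low levels inside the tumours. Col4a5 was at 0.607, 0.706 and 0.603 FPKM with vehicle and 0.306, 0.456 and 0.322 with oil, without overlap (exact two-sided permutation p = 0.1, n = 3). Col4a6 was at 0.384, 0.514 and 0.294 against 0.298, 0.184 and 0.188, with overlap, and both lay under the level needed for the fit. The authors' deposited table gives unadjusted p values of 0.00982 and 0.0239 for them, with an adjusted p of 1 for both. Together they made 1.62%, 2.03% and 1.60% of the type IV FPKM with vehicle and 1.16%, 0.998% and 0.672% with oil. Of the 23 members too low for the fit in papilloma, 6 had groups that did not overlap, all with exact p = 0.1: Col4a5, Col4a4, Col8a2 and Col9a3 lower and Col25a1 and Col28a1 higher with oil. Mean FPKM with oil was 0.566 of that with vehicle for Col4a5, 0.379 for Col8a2 and 0.504 for Col9a3, and 1.98-fold and 1.76-fold that of vehicle for Col25a1 and Col28a1. Of all genes tested, which had passed the filter, 6.59% were without overlap, 3.56% lower and 3.03% higher with oil. No such share was computed for genes too low for the fit.

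One ratio inside the type I trimer separated the tumour groups. Col1a1 to Col1a2 was 1.25, 1.23 and 1.16 in vehicle papillomas and 1.25, 1.28 and 1.38 in oil-treated papillomas, with no overlap and the smallest exact p the design allows (0.1, two-sided, n = 3 per group). The closest libraries of the groups stood at 1.252 and 1.254. The ratios Col4a1 to Col4a2, Col6a1 to Col6a2, Col5a1 to Col5a2 and Col3a1 to Col1a1 overlapped (exact p 0.2 to 0.9), and the 20 tests of ratios over 4 comparisons were not adjusted because 0.1 is their lower limit.

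The oil effects in the tissues, tested against each other in all 12 libraries, differed for Postn. Its log2 effect was 1.55 in epidermis and 0.09 in papilloma, and the difference, papilloma minus epidermis, was -1.45 (SE 0.26, adjusted p = 0.0315, limma with an interaction term). It was 1 of 43 members tested and called, against 0.718% of 13224 genes, 0.0302% higher and 0.688% lower in papilloma. At an unadjusted p below 0.05 were 11 members, against 9.88% of all genes. The call was lost, with a log2 difference of -1.26 to -1.51, when any of 8 single libraries was left out: vehicle library 2 and oil libraries 1 and 2 of epidermis, vehicle libraries 2 and 3 and oil libraries 1, 2 and 3 of papilloma (adjusted p 0.0505 to 0.102). It was lost as well without both muscle-rich vehicle libraries (0.110) and with no filter on low values (0.0654). For Col1a1 (1.52, adjusted p = 0.0746), Col1a2 (1.32, adjusted p = 0.0999) and Col3a1 (1.47, adjusted p = 0.196) the estimate of the difference was as large but did not pass, nor did Tnc (-0.97, adjusted p = 0.341) or Thbs1 (-0.74, adjusted p = 0.311). The tissues also differ in the length of treatment, 24 h against 6 weeks, which cannot be told apart from the tissue.

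**Figure D3:**
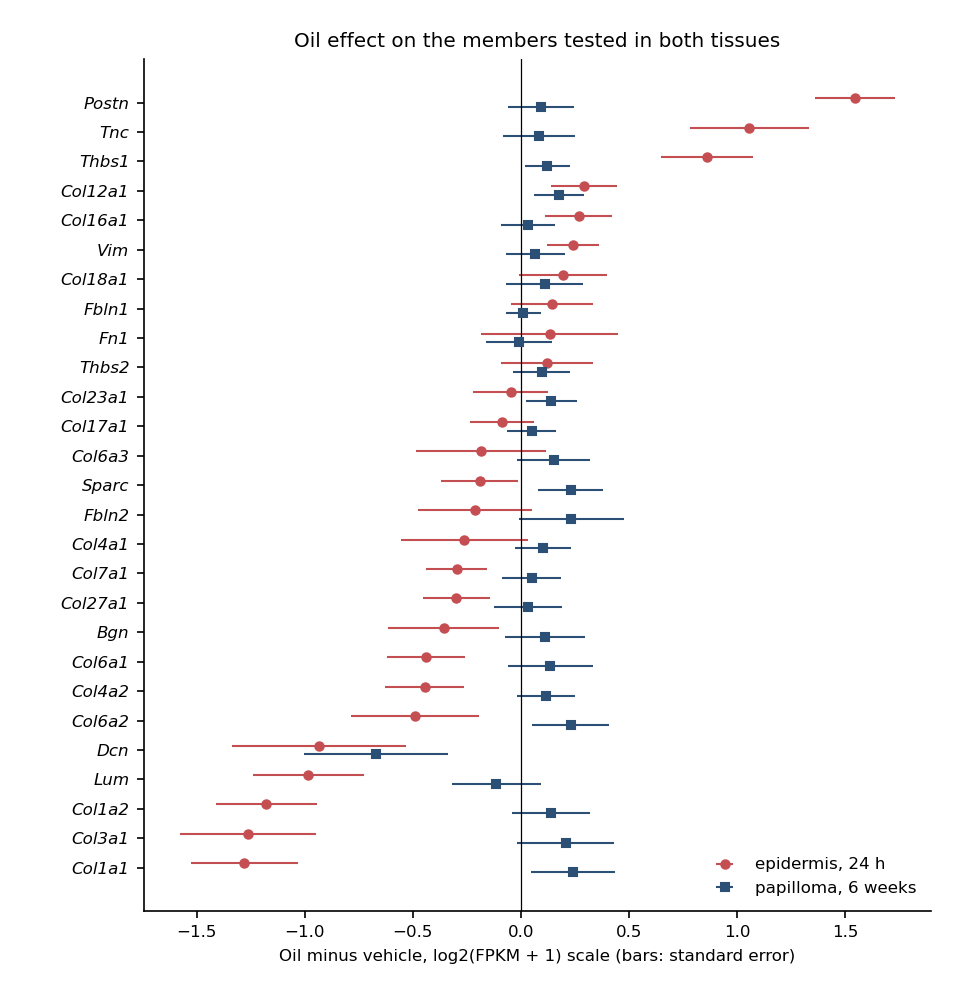
Oil minus vehicle on the log2(FPKM + 1) scale for the members tested in both tissues, with standard errors, epidermis as circles and papilloma as squares. In epidermis the points run from -1.28 (Col1a1) to 1.55 (Postn), while in papilloma they lie between -0.67 (Dcn) and 0.24 (Col1a1).

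Between papilloma and epidermis under vehicle most members tested were called. Examples called higher were Col5a2, with a mean FPKM in papilloma 36.3-fold that in epidermis, Col13a1 (23.9-fold, from a mean of 0.137 FPKM), Col1a1 (23.8-fold), Tnc (21.8-fold), Fbln2 (16.9-fold), Col1a2 (16.8-fold) and Col4a1 (12.6-fold). Col4a6 and Col4a5 fell to 0.0747 and 0.191 of their epidermal means. Of 42 members tested, 31 were higher and 8 lower in papilloma, and 3 (Col27a1, Eln and Dcn) did not pass. Of all 12820 genes tested 69.9% were called, 31.7% higher and 38.2% lower (limma, adjusted p below 0.05). The median log2 difference was 2.16 for the tested members and -0.07 for all genes. Since a member passes the filter through either tissue, 5 of the 42 were tested through papilloma alone (Col13a1, Col5a3, Col8a1, Lox and Pdgfrb). Through epidermis alone came 4 (Col4a5, Col4a6, Col8a2 and Col9a3). For these members the filter favoured the direction found, so their p-values are not independent of it. Over all 60 members, 38 had every papilloma library above and 11 every one below the epidermis libraries, against 74.4% of all genes tested without overlap, 33.8% higher and 40.6% lower. Those shares leave out genes too low for the fit, as 18 of the 60 members were. The summed FPKM of 10 endothelial markers moved the same way, at 7.06 to 26.7 in epidermis and 48.5 to 65.6 in papilloma, while the muscle genes moved the other way. Under vehicle 2 endothelial genes overlapped, Vwf at 2.57, 0.769 and 0.812 in epidermis against 1.22, 1.23 and 1.01 in papilloma, and Tek at 1.27, 0.816 and 0.331 against 0.761, 1.23 and 0.898. The other genes of that list were higher in every papilloma library. The 10 fibroblast markers summed to 156 to 251 FPKM in epidermis and 64.7 to 86.4 in papilloma, and were divided: under vehicle Thy1, Clec3b, Pi16 and Mfap5 were lower in every papilloma library than in any epidermis library, Twist2, Prrx1, Dpp4 and Cd34 were higher, and Dpt and Fap overlapped. The part of other cell types in these differences was not tested.

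Fibril-forming collagens were 6 higher and 0 lower of 7 tested, where 31.7% of all genes were called higher and 38.2% lower. Col1a1 had a log2 difference of 4.41 (SE 0.22, adjusted p = 1.78e-06), Col1a2 of 3.93 (SE 0.21, adjusted p = 2.82e-06) and Col3a1 of 3.09 (SE 0.32, adjusted p = 6.96e-05, limma). Col5a2, a chain that limits fibril width, was at 1.01, 0.496 and 0.364 FPKM in vehicle epidermis and 21.9, 22.6 and 23.3 in vehicle papilloma (log2 difference 3.88, SE 0.16, adjusted p = 7.81e-07). Col5a1 and Col5a3 rose as well (3.11 and 2.40), and Col27a1 did not pass (-0.26, adjusted p = 0.121). The minor fibrillar genes Col2a1, Col11a1 and Col24a1 stayed below 1 FPKM in both tissues, and their papilloma values were all above their epidermal values. Col11a2, as low, overlapped, at 0.483, 0.185 and 0.303 in vehicle epidermis and 0.193, 0.456 and 0.209 in vehicle papilloma.

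Ratios between the RNAs of the fibrillar chains did not overlap between the tissues. Col1a1 to Col1a2 was 0.829 to 0.879 in vehicle epidermis and 1.16 to 1.25 in vehicle papilloma, so that the order of the chains was opposite in the tissues. Col3a1 to Col1a1 was 1.38 to 1.76 in epidermis and 0.514 to 0.687 in papilloma. Col5a1 to Col5a2 was 1.23 to 1.70 against 0.635 to 0.719. Each exact two-sided permutation test gave 0.1, the smallest p possible (n = 3 per group).

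Matricellular and adhesive glycoproteins were called higher in papilloma in 6 of 6, against 31.7% of all genes, although the groups overlapped for Thbs2. Tnc had a log2 difference of 3.55 (SE 0.17, adjusted p = 1.66e-06), Postn 2.88 (SE 0.20, adjusted p = 9.00e-06), Sparc 2.43, Fn1 2.23, Thbs1 2.16 and Thbs2 0.69 (adjusted p = 0.0222, limma). Postn in oil-treated epidermis, at 51.3 to 63.1 FPKM, lay between vehicle epidermis and papilloma and overlapped neither, and the same order held for Thbs1 and Tnc. Of the proteoglycans Bgn (3.08) and Lum (2.15) rose, while Dcn, at 8.90 to 26.4 in vehicle epidermis and 9.47 to 22.2 in vehicle papilloma, differed by -0.12 (SE 0.40, adjusted p = 0.795, limma).

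The type IV chains differed in opposite directions. Col4a1 was 1.43 to 4.45 FPKM in vehicle epidermis and 35.8, 34.2 and 32.1 in vehicle papilloma, and Col4a2 went from 2.63 to 4.27 to 24.1, 24.6 and 23.2. Their log2 differences were 3.32 (SE 0.26) and 2.49 (SE 0.15), while Col4a6 fell by 2.17 (SE 0.13, adjusted p = 4.84e-06) and Col4a5 fell by 1.39 (SE 0.16, adjusted p = 0.000123, limma). Col4a5 and Col4a6 entered the fit through epidermis alone, so the filter favoured the direction found for them. Col4a5 and Col4a6 together made 50.7%, 54.2% and 70.0% of the type IV FPKM in vehicle epidermis and 62.1%, 54.8% and 69.0% in oil-treated epidermis, against at most 2.03% in papilloma. The remaining chains of the family, Col4a3 and Col4a4, which are known from kidney and other specialised membranes, were below 0.1 FPKM in all 12 libraries. Of the gene pairs shown above, Col4a1 and Col4a2 were thus both higher and Col4a5 and Col4a6 both lower in papilloma.

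**Figure D4:**
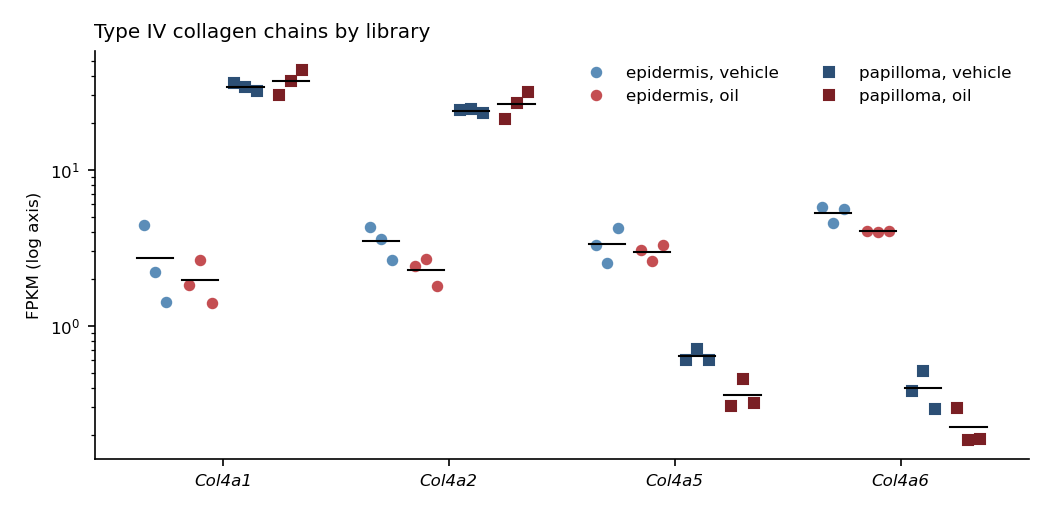
FPKM on a log axis of the 4 measurable type IV chains in the 4 groups, with 1 point per library and black bars at the group means. Col4a1 and Col4a2 lie above 20 in every papilloma library and below 5 in every epidermis library, while Col4a5 and Col4a6 lie above 2 in epidermis and below 1 in papilloma.

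Anchoring and beaded filament collagens rose in the tumours, Col7a1 from 16.2 to 22.1 FPKM up to 43.5, 53.1 and 44.7 (log2 difference 1.21), Col6a1 to 31.9, 48.8 and 46.0 (2.46) and Col6a2 to 29.6, 42.7 and 39.1 (3.32). Col6a1 to Col6a2 was 1.57, 2.26 and 4.51 in vehicle epidermis and 1.08, 1.14 and 1.18 in vehicle papilloma (exact two-sided permutation p = 0.1, n = 3). Col6a4 was read from at most 2 fragments in any epidermis library and from 85 to 135 in every papilloma library. Against these, Col8a2 fell by 1.11, to 0.205, 0.170 and 0.149 FPKM (SE 0.14, adjusted p = 0.000207), although its partner Col8a1 rose by 1.99 (SE 0.19, limma). Col8a2 entered the fit through epidermis alone and Col8a1 through papilloma alone.

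The membrane-spanning collagens divided. Col17a1, the keratinocyte gene, fell by 0.55 (SE 0.12, adjusted p = 0.00316) and Col23a1 fell by 0.58, while Col13a1 rose by 1.89. Of the multiplexins Col18a1 rose by 2.71, to 79.9, 78.1 and 73.5 FPKM in vehicle papilloma, and Col15a1 went to 6.08, 7.06 and 5.72 FPKM, also called higher (limma). Among the fibril-associated collagens Col12a1 rose by 2.87, to 23.7, 22.1 and 24.6 FPKM, whereas Col16a1 fell by 0.73, to 10.8, 12.8 and 10.9, and Col9a3 fell by 0.89, from 1.26, 1.34 and 1.94 to 0.334, 0.347 and 0.369 (adjusted p = 0.000576, limma). Col9a3 entered the fit through epidermis alone.

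Elastic fibre genes were called higher in 4 of 5, against 31.7% of all genes. Fbln2 had a log2 difference of 3.53 (SE 0.25, adjusted p = 9.79e-06, limma), Fbln1 2.02, Fbn1 1.71 and the crosslinking enzyme Lox 1.23. Eln (elastin) was at 3.22, 1.83 and 1.03 FPKM in vehicle epidermis and 0.655, 1.99 and 0.889 in vehicle papilloma and did not pass (-0.46, adjusted p = 0.212, limma). Of the mesenchymal genes the platelet-derived growth factor receptors Pdgfrb (2.42) and Pdgfra (1.31) rose, and Vim fell by 0.77 (SE 0.09, adjusted p = 0.000114, limma).

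Under oil the comparison of papilloma with epidermis, on 6 other libraries, gave 31 members higher and 7 lower of 40 tested, where 68.7% of 12720 genes were called, 29.1% higher and 39.6% lower. Of the 40, 10 were tested through papilloma alone and 3 (Col4a5, Col4a6 and Eln) through epidermis alone. For these members the filter favoured the direction found. Col1a1 had a log2 difference of 5.93 (SE 0.22), Col1a2 5.25 (SE 0.19) and Col3a1 4.56 (SE 0.20), each larger than under vehicle, while Postn had 1.43 (SE 0.13) and Tnc 2.58 (SE 0.27, limma), each smaller. Tested as an interaction, this is the same contrast as the difference of the oil effects above, where Postn alone of these passed. In both comparisons 31 of 40 members tested in each were called higher and 6 lower, where 26.7% of the 12553 genes tested in both were called higher in both and 34.7% lower in both. Under oil 38 of the 60 members had every papilloma library above and 14 every one below the epidermis libraries, against 74.0% of all genes tested, 31.4% higher and 42.6% lower. The counts in both comparisons were 37 above and 10 below, against 28.6% and 36.8% of all genes tested in both. These shares too leave out genes too low for the fit. Median-ratio scaling moved the median of all genes by 0.11 (log2) under oil, and no named member changed direction with it.

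**Figure D5:**
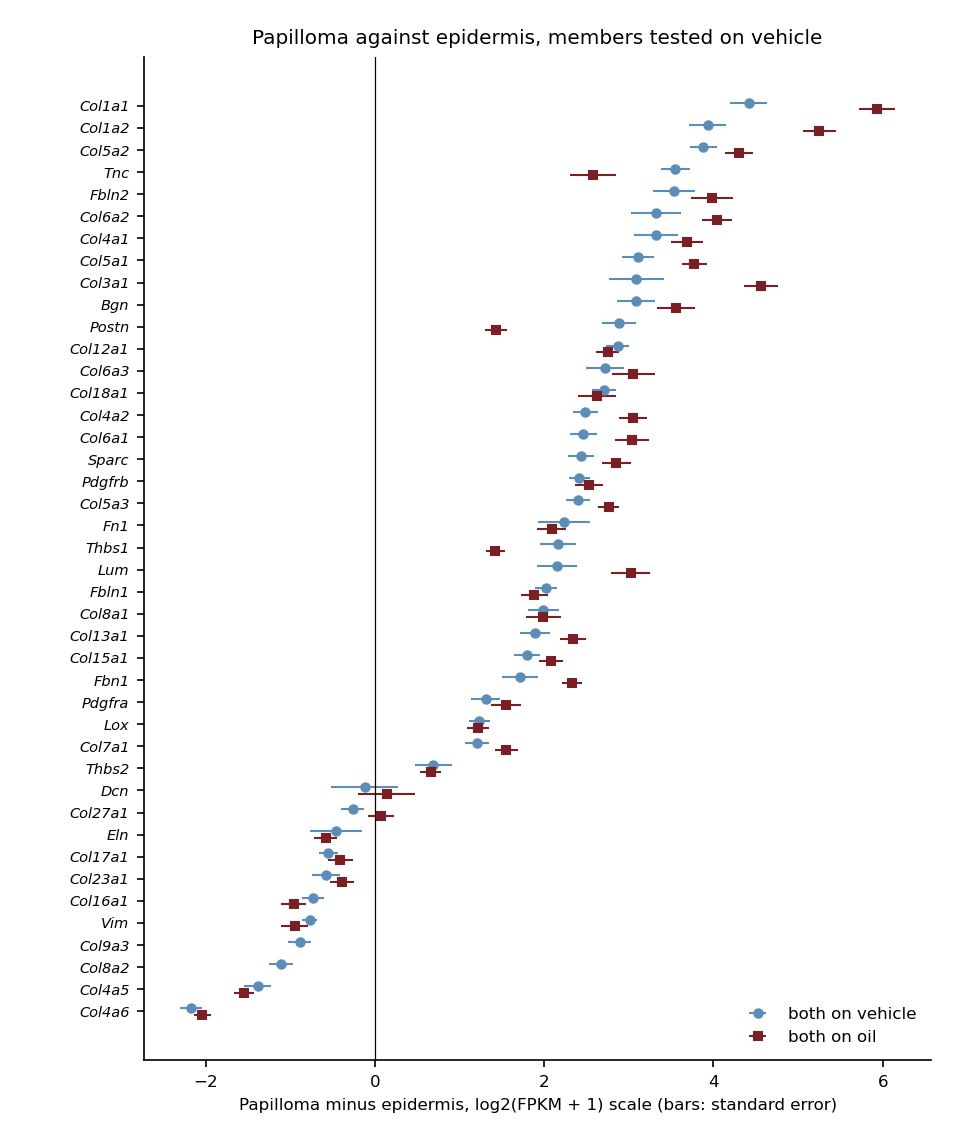
Papilloma minus epidermis on the log2(FPKM + 1) scale with standard errors for the 42 members tested under vehicle (circles), and for those tested under oil (squares). Col1a1 is at the top at 4.41 and 5.93, Postn and Tnc are lower under oil than under vehicle, and Col4a6 is at the bottom at -2.17 and -2.04.

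Enzymes that process collagen and the other matrix genes were counted from lists outside the members. Of 24 genes for collagen processing and crosslinking, 16 were tested in epidermis and 1 passed, P4ha2, a subunit of collagen prolyl 4-hydroxylase, which rose with oil from 5.99 ± 0.589 to 14.1 ± 3.12 FPKM (SD, n = 3; log2 difference 1.09, adjusted p = 0.0243, limma), against 1.73% of all genes called higher. In papilloma 0 of 21 passed, and the oil effects on P4ha2 differed between the tissues (-1.14, adjusted p = 0.0436). Of 47 other dermal matrix proteins 31 were tested in epidermis and 1 passed, Ltbp4, a binding protein of latent TGF-beta, lower at 16.1 ± 1.12 against 26.8 ± 2.79 FPKM (SD, n = 3; log2 difference -0.70, adjusted p = 0.0286, limma). Of the 31, 25 had a negative difference. In epidermis 9 of the 16 processing genes and 8 of the 31 matrix proteins had an unadjusted p below 0.05, against 14.6% of all genes (limma). In papilloma 0 genes of either list reached that level, against 2.51% of all genes. The authors' deposited table for epidermis lists P4ha2 and Ltbp4 in the same directions, with log2 fold changes of 1.21 and -0.75.

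Collagen and matrix receptors gave 0 of 10 calls in epidermis and 0 of 15 in papilloma, and TGF-beta signalling genes 0 of 17 and 0 of 20 (limma), where at an unadjusted p below 0.05 stood 1 and 0 receptors and 2 and 0 TGF-beta genes, against 14.6% of all genes in epidermis and 2.51% in papilloma. Those with the smallest p in epidermis were Cd44, the receptor of hyaluronan, at a log2 difference of 0.53 (adjusted p = 0.196), and Ctgf, a matricellular target of TGF-beta, at -0.84 (adjusted p = 0.0802, limma). Between the tissues under vehicle, 13 of 21 tested processing genes were higher and 3 lower in papilloma. The other dermal matrix proteins gave 18 higher and 9 lower of 35, the receptors 10 higher and 3 lower of 15, and the TGF-beta genes 12 higher and 3 lower of 20, where 31.7% of all genes were called higher and 38.2% lower. Among the processing genes with the smallest p, Loxl2, a lysyl oxidase (log2 difference 2.59), and Bmp1, the procollagen C-proteinase (1.93), were higher, and the procollagen protease Adamts14 (-2.70) was lower. Among receptors Itga5 (2.76) and Itgb1 (2.09), which pair as a fibronectin receptor, were higher, and the collagen receptor Ddr1 (-1.81) was lower. Of the matrix proteins Tnn (tenascin N, 2.73) was higher and Tnxb (tenascin X, -3.26) lower, and of the TGF-beta genes Fst (follistatin, 4.03) was higher and Tgfbr3 (betaglycan, -1.61) lower (limma).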

How the data were processed

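PolyA RNA of 12 libraries was measured, 3 per group. The submitters' processing notes name bcl2fastq 1.8.4, TopHat2 2.0.4, Cufflinks 2.0.2, DESeq and the build mm9. For each library the deposited table holds an FPKM value per gene, an interval and a status. Per the file headers, the authors' comparison tables hold each group's mean signal, the fold change as a ratio and as log2, and a raw and adjusted p-value. Strand use is not given in the sources used here.

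Rows sharing a symbol were summed, and values not marked OK were treated as missing (0 among the members). Fragments were recovered from the FPKM and its interval, taken as 2 standard deviations of a count, and 67.9% to 69.2% of values under 500 fragments came out whole within 0.02. Limma 3.58.1 (R 4.3.3, with trend) was fitted to log2(FPKM + 1) of genes reaching 1 FPKM in 3 or more fitted libraries. P-values were two-sided and adjusted by Benjamini-Hochberg over all genes tested, with a threshold of 0.05. A fold change on this scale understates that of low genes. Sums, chain ratios and members too low for the fit were compared by exact two-sided permutation over libraries. Shares of all genes without overlap were computed only over genes that passed the filter. The fit was tested on simulated data. No label says that the epidermis samples of a group came from separate mice, so p-values there measure the spread between these samples, which may be technical.

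The members, role groups and lists were chosen with earlier results of these data known. Members named by rule were those called between oil and vehicle, the 2 highest of each role group, 8 set by name and the 6 called with the largest differences between the tissues in each direction, and others were named after their values were seen. Alternatives were other pseudocounts, filters and scaling, a replicate block, a fit of all 12 libraries, limma-voom, values of any status and libraries left out. Leaving out short non-coding genes was added after the data were seen.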

Additional observations from a re-analysis of the deposited data

Results flagged for a closer look

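The oil effect on Postn differed between the tissues, with a log2 difference of -1.45 (papilloma minus epidermis, limma interaction term, adjusted p = 0.0315). All 3 oil libraries of epidermis were above the vehicle libraries, and the papilloma groups overlapped. The adjusted p ranged from 0.0208 to 0.110 over the alternatives.

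Col28a1 had all oil libraries below all vehicle libraries in epidermis and above them in papilloma. Its mean was 0.0872 FPKM in vehicle epidermis and 0.0324 with oil, and 0.153 in vehicle papilloma and 0.270 with oil. The values rest on 1 to 21 fragments per library, and the difference between the tissues was not tested.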

How the results depend on the processing

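Where a cause of a change is not named, the cause was not tested. The oil effect in epidermis called 33 genes with no filter, 26 with the replicate block, 637 in the fit of all 12 libraries, 11 without both vehicle libraries rich in muscle RNA and 51 to 653 with single libraries left out. Members called higher were 0 with no filter, with the block and without both libraries, 3 with all 12 and 1 to 2 with single libraries left out. Members called lower were 0 with a pseudocount of 3, no filter, median-ratio scaling, the block, limma-voom and without both libraries, 4 with all 12, 2 without short non-coding genes and 0 to 4 with single libraries left out. In papilloma the genes called were 0 with a pseudocount of 3, no filter, median-ratio scaling, limma-voom and short non-coding genes left out, 5 with the block, 2 with all 12 and 0 to 1 with single libraries left out. The difference of the oil effects called 63 genes with no filter, 22 with the block, 17 without both libraries and 32 to 330 with single libraries left out, and 4.21% of its calls were higher, against 41.8% without epidermis vehicle library 3. Of its members, 0 were lower with no filter and without both libraries (0 to 2 with single libraries left out), and 1 was higher with the block (0 to 3). Members lower in papilloma were 4 with a filter of 5 FPKM under vehicle and under oil, 4 without both libraries, and 4 to 8 (vehicle) and 2 to 6 (oil) with single libraries left out. No pairing of libraries by replicate number is given in the sources used here.

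Every reversal concerned a value that had not passed a test, and is given on the log2 scale. Without both muscle-rich libraries Sparc in epidermis was 0.13, Dcn between the tissues under vehicle 0.65, and the epidermis ratios Col6a1 to Col6a2 and Col5a1 to Col5a2 were -0.69 and 0.0059. With limma-voom, Col8a2 in the difference of the oil effects was -0.47 and Dcn between the tissues under vehicle 0.11. With single libraries left out, the oil effect on Fn1 in epidermis ran from -0.16 to 0.53. In papilloma it ran from -0.047 to 0.21 for Postn, -0.10 to 0.17 for Fn1, -0.076 to 0.18 for Tnc, -0.26 to 0.059 for Pdgfra and -0.063 to 0.21 for Vim. Dcn between the tissues ran from -0.51 to 0.22 under vehicle and -0.21 to 0.37 under oil. The summed FPKM in epidermis ran from -0.057 to 0.097, Col1a1 to Col1a2 there from -0.35 to 0.040 and Col6a1 to Col6a2 from -0.19 to 0.57. In papilloma Col4a1 to Col4a2 ran from -0.033 to 0.018 and Col3a1 to Col1a1 from -0.16 to 0.051.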
